A study of Mus musculus with 48 samples.

Results

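The unfolded protein response and the ATF4 pathway were followed as 34 named genes in epidermal stem cells (EpSCs), the keratinocytes that renew the skin epithelium. Members were found by gene symbol: only probe sets naming exactly 1 gene were used, and of several such probe sets the one whose mean over the 48 arrays was highest. In this way 33 of the 34 genes were found among 17097 genes with such a probe set, and all 33 were among the 12823 tested; Ero1l was not listed under that symbol. The genes fall into 4 branches: 4 encode the stress sensors and XBP1, 8 the ATF4 arm, 14 the chaperones and folding enzymes of the endoplasmic reticulum (ER), and 7 the ER-associated degradation machinery (ERAD) and translocon.

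The cells came from wild-type female C57B6/J mice that were either 8 weeks old (young) or 102 to 116 weeks old (aged). Mice of each age were taken at 6 Zeitgeber times (ZT0, 4, 8, 12, 16 and 20), with 4 mice per age and time and 1 array per mouse, so that each age had 24 arrays. No group carried a transgene, a deletion or a drug treatment according to the labels. No light schedule, array date or isolation method was found in the labels. Every value is the deposited log2 level, so that a difference of 1 is a doubling of signal.

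When unfolded proteins gather in the ER, 3 membrane sensors respond. IRE1 (Ern1) splices the mRNA of the transcription factor XBP1, ATF6 travels to the Golgi and is cut to release a transcription factor, and PERK (Eif2ak3) phosphorylates eIF2, which slows protein synthesis while favouring translation of ATF4. XBP1 and ATF6 raise chaperones, folding enzymes and ERAD genes, whereas ATF4 raises genes of amino acid supply and of feedback and death signalling, and also responds to amino acid shortage and other stresses. Splicing, cleavage and phosphorylation are not read by a measurement of mRNA level.

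The labelled cell type was compared with marker lists. All 10 basal keratinocyte markers lay above the limit for dim genes, among them Krt5 with a mean of 12.70 in young and 12.68 in aged cells. The suprabasal keratins Krt1 (11.64 and 11.71) and Krt10 (11.72 and 11.69) were also high. Markers of other cell types were in part above the dim limit of 3.96, taken on the mean over all arrays. In the hair follicle bulge list 5 of 8 lay above it, with Sox9 at 9.56 in young and 9.60 in aged cells, Nfatc1 at 9.36 and 9.45 and Postn at 9.25 and 8.49, whereas Cd34 and Lgr5 lay below it. Of 8 fibroblast markers 4 lay above, with Fbln1 at 7.19 and 7.05, and Col3a1 and Pdgfra below. Of 9 Langerhans and myeloid markers 5 lay above, with H2-Aa at 7.26 and 7.23, and Cd207 and Ptprc below. Of 8 endothelial markers 3 lay above, the highest being Cldn5 at 4.57 and 4.51, and Cdh5 below. In the upper follicle and sebaceous gland list 4 of the 6 found lay above, with Plet1 at 11.314 and 11.445, Krt79 at 10.94 and 11.04, and Elovl3 below. Among 8 melanocyte markers 3 lay above, with Mitf at 7.80 and 7.77, and Dct and Tyr below. All 3 red blood cell markers found lay above, with Hba-a1 at 7.13 and 7.28. Of 6 T cell markers tested, all but Cd2 (4.377 in young and 4.325 in aged cells) had a higher mean in aged cells, with Thy1 at 9.09 in young and 9.74 in aged cells. In RNA from a whole cell preparation, fewer cells of a type and less RNA per cell cannot be told apart. Medians of the 48 arrays ran from 4.78 to 5.04.

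**Figure D1:**
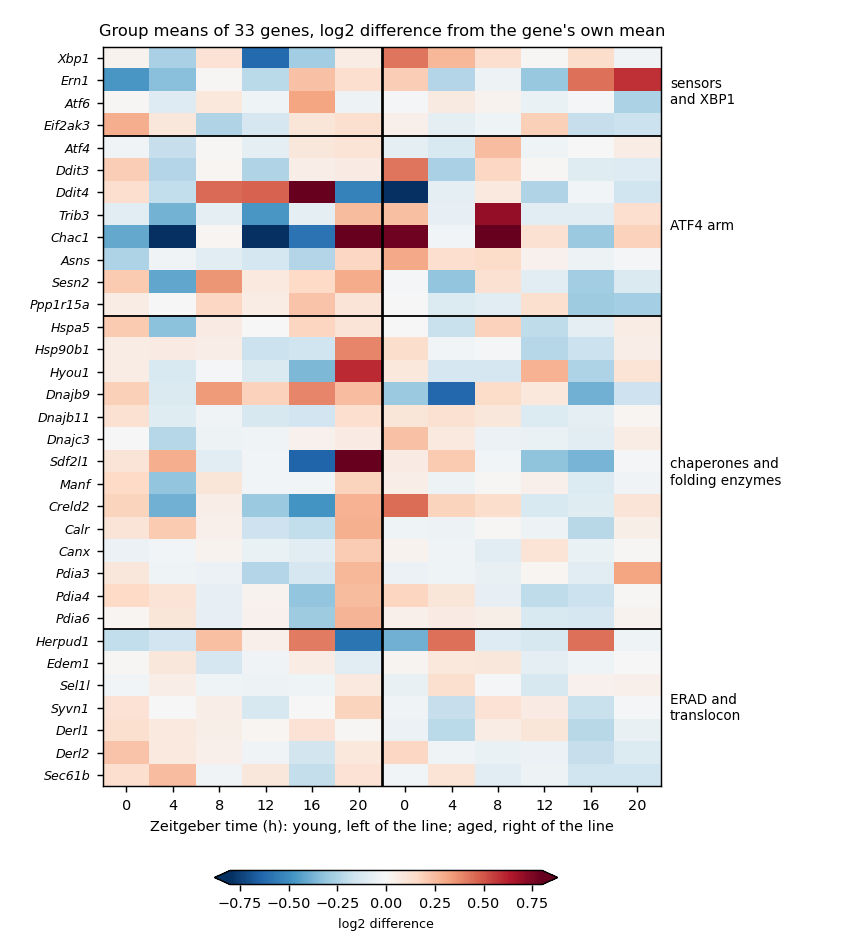
Group means of the 33 genes, each drawn as its log2 difference from that gene's own mean over the 12 groups, with Zeitgeber time in hours on the horizontal axis, young cells left of the vertical line and aged cells right of it. Horizontal lines separate the 4 branches, and colours stop at a difference of 0.8. In young cells 12 of the 14 chaperone genes have their highest mean at ZT20, some of them narrowly, and 8 their lowest at ZT16.

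In young cells the levels of many of these genes depended on the time of day, and the chaperones and folding enzymes carried most of that count. Variation over the 6 times, tested in limma by an F test of the group means with Benjamini-Hochberg adjustment over all 12823 genes, passed an adjusted p of 0.05 in 11 of the 33 genes in young cells, where 17.5% of all genes passed. In aged cells 6 of the 33 passed, against 8.36% of all genes. The young count was made up of 8 chaperone genes (Hsp90b1, Hyou1, Sdf2l1, Manf, Creld2, Calr, Pdia4 and Pdia6), Xbp1, Ddit4 and Herpud1, and the aged count of Ern1, Ddit3, Ddit4, Ppp1r15a, Hsp90b1 and Herpud1. A difference between the ages in the whole course passed in Herpud1 and Ddit4, 2 of the 33 genes, against 2.59% of all genes. At an unadjusted limma p under 0.05 the count in that test was 9 of the 33, beside 1968 of all 12823 genes. For the remaining genes the difference did not pass, so passing at 1 age and not at the other does not establish one.

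Fewer of these genes passed as a daily wave. A cosine of 24 h passed in 3 of the 33 genes in young cells, against 6.27% of all genes. In aged cells 0 passed, against 1.36%. At an unadjusted limma p under 0.05 the counts were 13 and 6 of the 33, beside 2657 and 1458 of all 12823 genes. Calr, a lectin chaperone that binds calcium, followed a wave of amplitude 0.20 ± 0.05 (SE) in young cells, peaking at ZT0.91 ± 0.94 (limma, adjusted p = 0.0216), and its amplitude in aged cells was 0.06 (adjusted p = 0.872). Hsp90b1, the ER member of the HSP90 family, peaked at ZT23.3 ± 1.0 with amplitude 0.17 ± 0.05 in young cells (adjusted p = 0.0434). In aged cells its amplitude was 0.16 (adjusted p = 0.152). Ddit4, an inhibitor of mTORC1 signalling that ATF4 and other stress pathways induce, had the widest wave of the 3, with amplitude 0.49 ± 0.14 and its peak at ZT12.6 ± 1.1 in young cells, and stood at the threshold (adjusted p = 0.05). Of 59 other fits, 19 kept the young rhythm of Ddit4, 42 that of Hsp90b1 and 56 that of Calr, with adjusted p up to 0.095, 0.233 and 0.178. No difference in rhythm between the ages passed in any member or in any of the 12823 genes, where 982 genes and 2 members had an unadjusted limma p under 0.05. The median amplitude of the 33 genes was 0.155 in young and 0.106 in aged cells, beside 0.0941 and 0.0783 over all genes tested.

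In young cells 12 of the 14 chaperone genes had their highest mean at ZT20, and 8 had their lowest at ZT16, 4 at ZT4 and 2 at ZT12. Some highest means were near ties: ZT20 and ZT0 were at 10.22 and 10.21 for Manf and at 8.31 and 8.29 for Dnajb11. The share of all genes with their highest mean at ZT20 was not computed. The steps between neighbouring times were added to the tests after the data had been seen, with adjustment over genes within each step only. Only the step from ZT16 to ZT20 was followed in the other fits. Between ZT16 and ZT20, a contrast picked after the courses had been seen, 9 of the 33 genes changed in young cells. Of these, 7 rose, all of them chaperones or folding enzymes, where 3.47% of all genes rose; the other 2, Ddit4 and Herpud1, fell, where 2.5% of all genes fell. In aged cells 0 members passed in the same interval, where none of the 12823 genes rose and 0.0312% fell. At an unadjusted limma p under 0.05 there were 4 members, beside 649 of all genes. The median step of the 14 chaperone genes was 0.44 in young cells, with 12 of 14 above 0, and 0.19 in aged cells, with all 14 above 0. Over all genes tested the median step in young cells was -0.00501. The difference of the steps between the ages passed in 0 of the 33 genes, where 0.148% of all genes were higher and 0.0546% lower. At an unadjusted limma p under 0.05 there were 10 members, beside 1240 of all genes. A smaller step in aged cells is thus not established for any single member.

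Sdf2l1, a component of the ER chaperone complex around HSPA5, showed the largest rise of these 7 genes. Its level in the 4 young mice of ZT16 was 6.47, 6.55, 6.58 and 6.86, and in those of ZT20 it was 7.88, 7.91, 8.14 and 8.34. All mice of ZT20 lay above all of ZT16, by 1.45 ± 0.22 (SE), a 2.73-fold rise (limma, adjusted p = 2.05e-05). The aged mice held 6.77, 6.87, 6.93 and 6.96 at ZT16 and 6.95, 7.14, 7.33 and 7.57 at ZT20, which overlap narrowly. The aged step was 0.36 ± 0.22, and the 2 steps differed by -1.09 ± 0.31 (adjusted p = 0.130).

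Hyou1, a large HSP70-like chaperone and exchange factor, stood at 8.32, 8.53, 8.64 and 8.80 in young mice of ZT16 and at 9.46, 9.52, 9.55 and 9.58 in those of ZT20. The groups did not overlap, and the rise was 0.96 ± 0.19, or 1.94-fold (limma, adjusted p = 0.000965). In aged mice Hyou1 had means of 8.68 ± 0.20 (SD, n = 4) and 9.04 ± 0.32, with a step of 0.36 ± 0.19 (SE). Its highest aged mean, 9.21 ± 0.37, fell at ZT12. Creld2, a secreted ER protein induced by ER stress, was at 8.63, 8.73, 8.74 and 8.77 in young mice of ZT16 and at 9.42, 9.46, 9.49 and 9.51 at ZT20. The 2 groups were tight and far apart, with a rise of 0.75 ± 0.15 (adjusted p = 0.00114). In aged cells Creld2 went from 9.10 ± 0.12 to 9.30 ± 0.21 (SD, n = 4).

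Hsp90b1 was at 10.87, 10.87, 10.89 and 10.91 in young mice of ZT16 and at 11.32, 11.38, 11.52 and 11.54 in those of ZT20. It rose by 0.55 ± 0.09, or 1.46-fold (limma, adjusted p = 0.000107). Hsp90b1 was also the only chaperone gene to pass the test over times in aged cells (adjusted p = 0.0298), with means of 10.82 ± 0.11 (SD, n = 4) at ZT12, 10.88 ± 0.06 at ZT16, 11.10 ± 0.07 at ZT20 and 11.19 ± 0.07 at ZT0. The order low at ZT12 and ZT16, then higher, was thus shared by both ages for this gene. The disulfide isomerases Pdia4 and Pdia6, which form and reshuffle disulfide bonds, rose by 0.57 ± 0.11 (adjusted p = 0.000725) and 0.55 ± 0.10 (adjusted p = 0.000512). In young cells Pdia4 went from a mean of 8.77 ± 0.08 (SD, n = 4) to 9.34 ± 0.14 and Pdia6 from 9.08 ± 0.07 to 9.63 ± 0.13, again with no overlap of mice. Calr rose by 0.48 ± 0.11 (adjusted p = 0.00459), from 10.41 ± 0.08 to 10.89 ± 0.10. A second, dimmer probe set of Pdia6 gave a step of 0.25, and with the mean of both probe sets the step of Pdia6 did not pass (adjusted p = 0.13).

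Not every chaperone took this step. Hspa5 (BiP), the main HSP70 of the ER and the protein that holds the sensors inactive, was at 10.80 ± 0.19 (SD, n = 4) at ZT16 and 10.73 ± 0.12 at ZT20 in young cells. Its lowest young mean was at ZT4, where the mice held 10.19, 10.30, 10.33 and 10.38, below every young mouse of ZT0, where the mean was 10.83 ± 0.24. From ZT0 to ZT4 Hspa5 fell by 0.53 (limma, adjusted p = 0.0334), as did Manf by 0.48 (adjusted p = 0.0120) and Creld2 by 0.56 (adjusted p = 0.0297), 3 of the 33 genes where 1.01% of all genes fell. Manf, a secreted factor that binds HSPA5, rose again by 0.41 from ZT4 to ZT8 (adjusted p = 0.0171), together with Sesn2, a stress-induced regulator of mTORC1, by 0.76 (adjusted p = 0.0465). These were 2 of the 33 genes, where 1.89% of all genes rose in that interval. Without young ZT4 mouse 3 the variation of Manf over times had an adjusted p of 0.0605. Hspa5 over all 6 times just missed the threshold in young cells (adjusted p = 0.0518), and passed without mouse 1 of aged ZT12 (adjusted p = 0.00500). Canx, Dnajb11, Dnajc3 and Pdia3 passed no test. From ZT16 to ZT20 in young cells Canx nonetheless rose by 0.30 ± 0.11 (SE), Dnajb11 by 0.29 ± 0.11 and Pdia3 by 0.40 ± 0.16. Their unadjusted limma p were 0.0121, 0.0117 and 0.0152 (adjusted p = 0.117, 0.115 and 0.133). A dimmer probe set of Canx gave a step of 0.09, and Dnajb9 had a step of -0.15. The young step of Dnajc3 was 0.03 with the probe set used, but 0.54, 0.42, 0.25 and 0.21 with its dimmer probe sets. The only probe set of Pdia3 was dim, with a mean of 4.80.

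**Figure D2:**
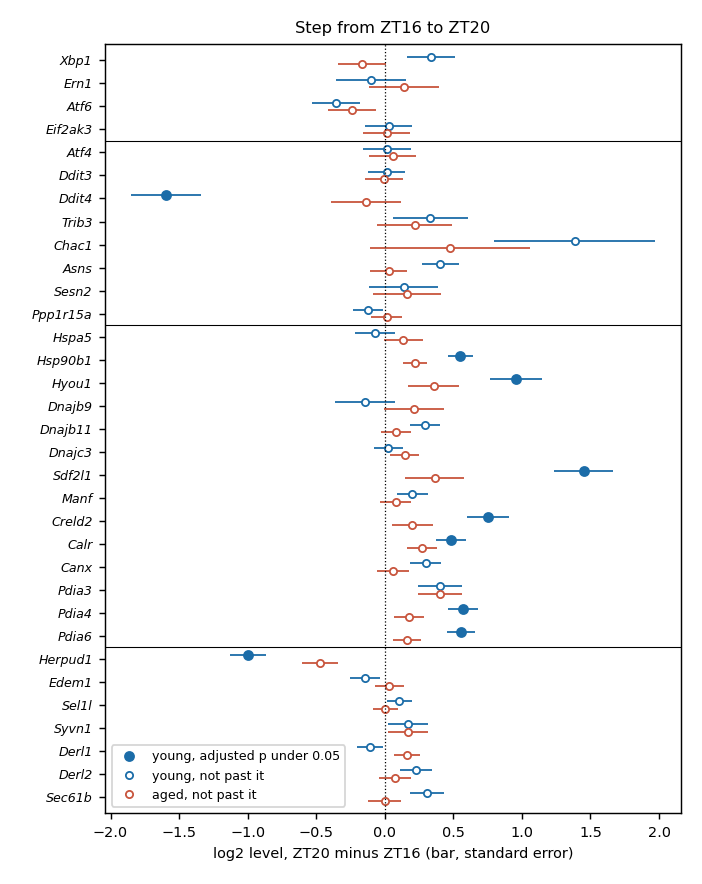
Change in log2 level from ZT16 to ZT20 for each of the 33 genes, with young cells in blue and aged cells in red, bars giving the standard error. Filled points passed an adjusted p of 0.05, which 9 genes did in young cells (7 rose and 2 fell) and 0 in aged cells.

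Many of the chaperone promoters hold the letters of a known element. The ER stress element is the site at which ATF6, together with NF-Y, binds, and its letters are CCAAT, then 9 bases of any kind, then CCACG. It was searched on both strands in RefSeq windows (GRCm38.p6) that run from 250 bases before to 50 after the annotated start. Of 29 members with a window, 8 held it (Calr, Canx, Creld2, Dnajc3, Hsp90b1, Hspa5, Pdia6 and Syvn1), of which 7 were among the 12 chaperone genes with a window, whereas 39 of all 32851 windows, or 0.119%, did. The windows below show the element in capitals with 20 bases on each side, written along the strand of the gene, where the element itself may read in either direction. They are shown for the chief chaperone, Hspa5, which did not take the step at ZT20, and for the 4 rising genes that hold it; Hsp90b1 holds it 2 times.

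Hspa5, chr2:34772005-34772063, plus strand: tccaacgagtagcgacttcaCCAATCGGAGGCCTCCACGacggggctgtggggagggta

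Hsp90b1, chr10:86705513-86705676, minus strand: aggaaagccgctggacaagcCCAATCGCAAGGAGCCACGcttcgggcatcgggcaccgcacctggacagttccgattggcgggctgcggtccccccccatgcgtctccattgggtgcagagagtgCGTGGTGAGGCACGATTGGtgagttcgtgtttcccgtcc

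Calr, chr8:84847055-84847113, minus strand: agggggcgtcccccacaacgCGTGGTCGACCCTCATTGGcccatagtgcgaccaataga

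Creld2, chr15:88819500-88819558, plus strand: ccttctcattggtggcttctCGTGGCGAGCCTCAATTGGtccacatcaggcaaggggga

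Pdia6, chr12:17266471-17266529, plus strand: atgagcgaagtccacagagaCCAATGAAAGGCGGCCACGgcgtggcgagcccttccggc

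All 5 stretches lie upstream of the annotated start. The windows of Sdf2l1 and Pdia4, which also rose, held no such match, and Hyou1 had no window in the table. Canx and Dnajc3 held the element and did not pass the test of the step with the probe sets used, although the dimmer probe sets of Dnajc3 rose. The shorter site CCACG alone, which also lies inside every full element, was found in 23 of the 29 windows and in 32.8% of all windows. The E-box CACGTG, the site of the CLOCK and BMAL1 proteins, was found in the windows of Calr and Dnajb9 and in 7.15% of all windows. A match describes the letters only.

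Herpud1, an ER membrane protein that organises the ERAD ubiquitin ligase and is a target of both ATF6 and ATF4, had the course that differed between the ages at the smallest adjusted p. In young cells its means ran 9.75 ± 0.12, 9.80 ± 0.25, 10.19 ± 0.14, 9.99 ± 0.25, 10.36 ± 0.15 and 9.36 ± 0.20 (SD, n = 4) from ZT0 to ZT20. In aged cells they ran 9.56 ± 0.30, 10.39 ± 0.08, 9.85 ± 0.17, 9.82 ± 0.10, 10.38 ± 0.05 and 9.91 ± 0.27. The aged course therefore had an added high at ZT4, where the 4 aged mice held 10.29, 10.35, 10.44 and 10.47 and the young mice 9.43, 9.88, 9.94 and 9.94, with no overlap. At ZT16 both ages were high. The young fall after ZT16 took all 4 mice of ZT20 (9.07, 9.43, 9.47 and 9.49) below all of ZT16 (10.21, 10.32, 10.37 and 10.56). It dropped by 1.00 ± 0.13 (SE), or 2.00-fold (limma, adjusted p = 2.15e-06). Variation over times passed in both ages (adjusted p = 6.36e-06 in young and 5.33e-05 in aged cells), as did the difference between the courses (adjusted p = 0.00158). In aged cells Herpud1 rose by 0.82 from ZT0 to ZT4 (adjusted p = 0.000352), fell by 0.54 from ZT4 to ZT8 (adjusted p = 0.0129) and rose by 0.57 from ZT12 to ZT16 (adjusted p = 0.0184). By a second probe set the young level of Herpud1 fell by 0.90 from ZT16 to ZT20.

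**Figure D3:**
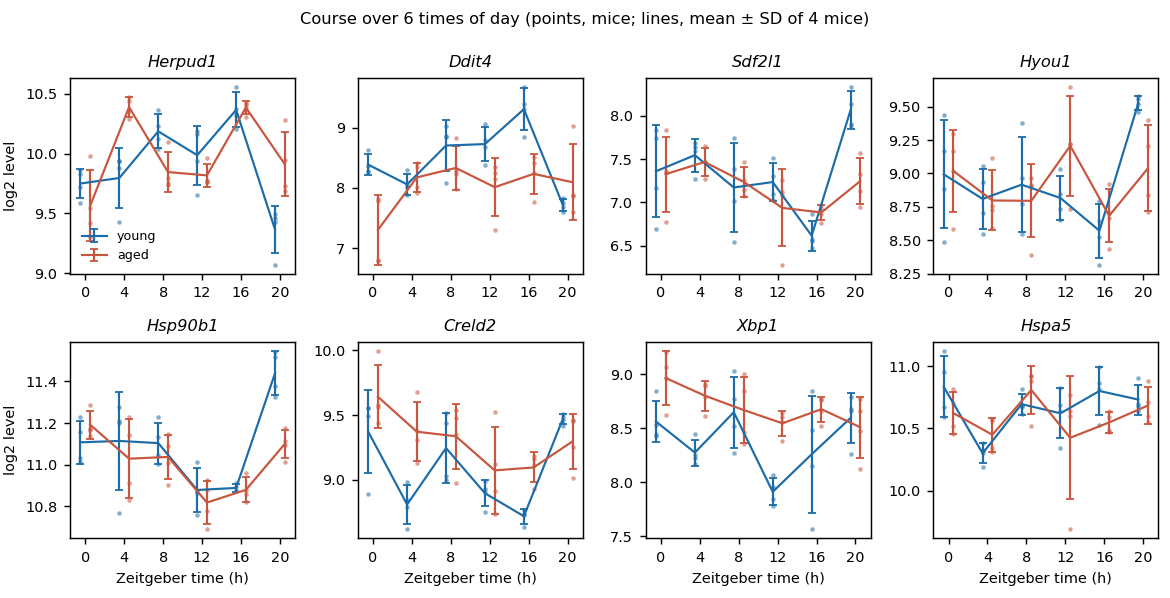
Log2 level against Zeitgeber time for 8 genes in young (blue) and aged (red) cells, where points are single mice and lines with bars give the mean ± SD of 4 mice. Young Sdf2l1, Hyou1, Hsp90b1 and Creld2 turn upward after ZT16 while Herpud1 and Ddit4 turn downward, and aged Herpud1 has a high at ZT4 (10.39) that young cells lack (9.80).

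Ddit4 was the other gene whose course differed between the ages (limma, adjusted p = 0.0236). Its young means were 8.39 ± 0.17, 8.06 ± 0.17, 8.70 ± 0.43, 8.73 ± 0.28, 9.31 ± 0.35 and 7.72 ± 0.10 (SD, n = 4) from ZT0 to ZT20. The 4 young mice of ZT16 held 8.84, 9.31, 9.40 and 9.68 and those of ZT20 7.60, 7.68, 7.75 and 7.82. Ddit4 fell by 1.59 ± 0.25 (SE) between them, or 3.02-fold (adjusted p = 6.61e-05). Aged Ddit4 stayed between 8.01 and 8.33 in mean at the 5 times from ZT4 to ZT20 and was lowest at ZT0, where the mice held 6.79, 6.81, 7.78 and 7.82, all below every young mouse of ZT0. The step in aged cells was -0.14 ± 0.25, and the difference of the steps was 1.46 ± 0.36 (adjusted p = 0.0721). With scores of 5 cell type lists as covariates the difference between the courses of Ddit4 had an adjusted p of 0.0575.

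None of the remaining 7 genes of the ATF4 arm passed over times in young cells. At an unadjusted limma p under 0.05 there were 4 of them, beside 4152 of all 12823 genes. Atf4 itself had group means from 10.36 to 10.66 in young and from 10.43 to 10.80 in aged cells, and passed no test. Mouse 1 of aged ZT12 held 9.50 and the other 3 mice 10.78 to 10.91, and without it the aged variation of Atf4 over times had an adjusted p of 0.0455. Sesn2 was at 7.99 in that mouse and at 9.91 to 10.12 in the other 3, and without it the variation of Sesn2 over times passed in young cells (adjusted p = 0.00503) and in aged cells (adjusted p = 0.0170). Ddit3, which encodes the transcription factor CHOP that is tied to cell death under ER stress, varied over times in aged cells (limma, adjusted p = 0.00679). The aged mice held 8.56, 8.84, 8.91 and 9.06 at ZT0 and 8.12, 8.12, 8.13 and 8.25 at ZT4, without overlap, and Ddit3 fell by 0.69 between them (adjusted p = 0.0032). It rose by 0.53 from ZT20 to ZT0 (adjusted p = 0.0290). Young Ddit3 had means of 8.61 ± 0.14 and 8.18 ± 0.22 (SD, n = 4) at ZT0 and ZT4, and its difference in course between the ages did not pass. Ppp1r15a, which encodes GADD34 and leads a phosphatase to eIF2, fell in aged cells by 0.42 from ZT12 to ZT16 (adjusted p = 0.0365), from 9.95 ± 0.15 to 9.53 ± 0.09 (SD, n = 4). The aged variation of Ppp1r15a over times was called in 36 of 59 other fits, that of Ddit4 in 46, that of Hsp90b1 in 52 and that of Ddit3 in 58. As background for these aged steps, 1.07% of all genes rose and 0.499% fell from ZT0 to ZT4, where 1 of the 33 genes did each. From ZT4 to ZT8, 2% rose and 1.31% fell, again with 1 member each way. From ZT12 to ZT16, 0.764% rose and 0.99% fell, with 1 member each way, and from ZT20 to ZT0, 1.15% rose, Ddit3 being the only member.

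Of the sensors and XBP1, 2 genes varied with time, each at 1 age. Xbp1 varied over times in young cells (limma, adjusted p = 0.0113), where the mice of ZT12 held 7.78, 7.84, 7.95 and 8.07, the lowest group mean of the 12. Ern1 varied over times in aged cells (adjusted p = 0.0496), with means from 7.46 ± 0.45 (SD, n = 4) at ZT12 to 8.35 ± 0.25 at ZT20. That call was kept in 19 of 59 other fits, and without mouse 1 of aged ZT12, for example, its adjusted p was 0.0728. Atf6, at 5.97 to 6.53 over the 12 group means, and Eif2ak3, at 5.73 to 6.26, passed no test with the probe sets used.

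Averaged over the day, 7 of the 33 genes differed between the ages, 3 higher and 4 lower in aged cells, where 9.89% of all genes were higher and 8.73% lower. Xbp1, Asns and Creld2 were higher, and Ddit4, Dnajb9, Ppp1r15a and Derl1 were lower. The median difference of the 33 genes was -0.0223, beside -0.00202 over all genes tested. The 7 genes came from all 4 branches. The ATF4 arm held 1 higher and 2 lower genes, and the chaperones 1 of each.

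**Figure D4:**
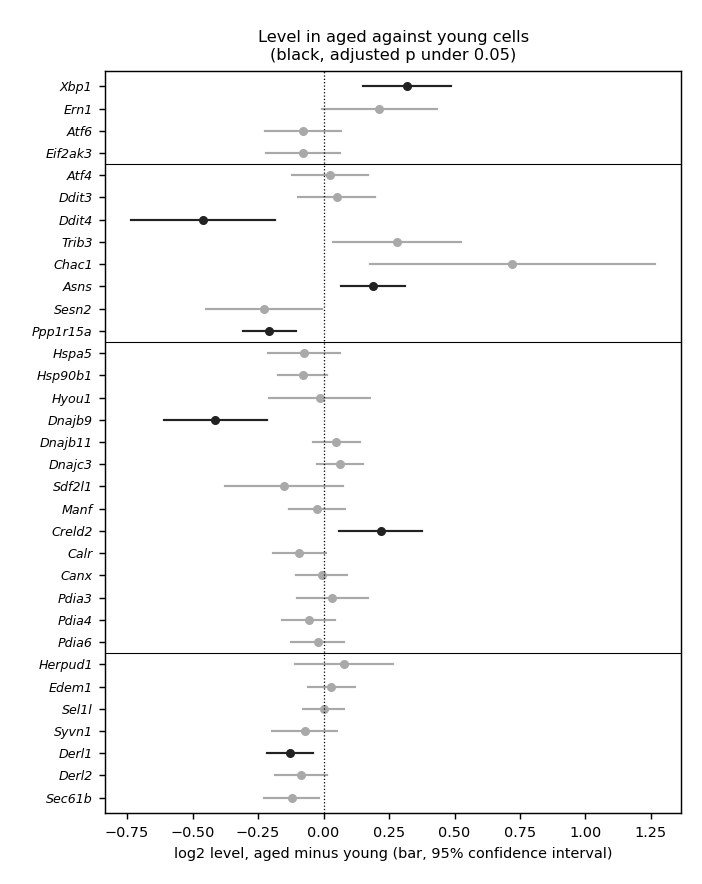
Difference in log2 level, aged minus young, averaged over the day, for each of the 33 genes with its 95% confidence interval. Black marks the 7 genes past an adjusted p of 0.05, from Xbp1 at 0.32 to Ddit4 at -0.46, and Chac1 has the widest interval.

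Xbp1 had a mean of 8.38 ± 0.37 (SD, n = 24) in young and 8.70 ± 0.25 in aged cells, with single mice from 7.56 to 9.03 and from 8.13 to 9.21. The ages overlapped, and 21 of 24 aged mice lay above the young median. The difference was 0.32 ± 0.08 (SE), or 1.25-fold, with a 95% interval from 0.15 to 0.49 (limma, adjusted p = 0.00462), and the aged mean was the higher at 5 of 6 times. At ZT12 the aged mice (8.38, 8.56, 8.61 and 8.64) were all above the young ones. All 4 Xbp1 probe sets gave a higher aged level, from 0.21 to 0.42. These probe sets do not tell spliced from unspliced Xbp1.

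Dnajb9 (ERdj4), a J-domain cofactor of HSPA5 that returns IRE1 to its inactive state, moved the opposite way. It was at 9.44 ± 0.29 (SD, n = 24) in young and 9.03 ± 0.42 in aged cells, with 2 of 24 aged mice above the young median, and the aged mean was the lower at all 6 times. The difference was -0.41 ± 0.10 (SE; limma, adjusted p = 0.00186), so that young cells held 1.33 times the aged level. Aged Dnajb9 rose by 0.78 from ZT4 to ZT8 (adjusted p = 0.0363), while its aged variation over times did not pass (adjusted p = 0.0788).

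Within the ATF4 arm, Asns, asparagine synthetase, was at 8.07 ± 0.19 (SD, n = 24) in young and 8.26 ± 0.24 in aged cells, 1.14-fold higher (limma, adjusted p = 0.0228), with 19 of 24 aged mice above the young median. Ppp1r15a was at 9.92 ± 0.16 in young and 9.72 ± 0.20 in aged cells, and 8 aged mice lay below every young one (difference -0.21 ± 0.05 (SE), adjusted p = 0.00252). Ddit4 was lower in aged cells, with a difference of -0.46 ± 0.14 (adjusted p = 0.0131). Chac1, an enzyme that breaks down glutathione and a sensitive ATF4 target, had the largest difference of the 33 genes but also the widest spread. Its levels ran from 4.14 to 7.71 in young and from 4.34 to 8.58 in aged mice, with means of 5.41 ± 0.97 (SD, n = 24) and 6.13 ± 1.02, and its difference of 0.72 ± 0.27 (SE) did not pass (adjusted p = 0.0547). Of the 48 fits without 1 array, 14 called it; without mouse 1 of aged ZT12, which held 4.34 where the other 3 held 6.35 to 6.47, the difference was 0.80 (adjusted p = 0.0258). Trib3, a pseudokinase that curbs ATF4, differed by 0.28 ± 0.12 (adjusted p = 0.104). Atf4 differed by 0.02 (95% interval from -0.12 to 0.17) and Ddit3 by 0.05.

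Among the other branches, Creld2 was higher by 0.22 ± 0.08 (SE; limma, adjusted p = 0.0449), from 9.08 ± 0.34 (SD, n = 24) to 9.30 ± 0.29. Derl1, a channel-like ERAD protein, was lower, with a difference of -0.13 ± 0.04 (adjusted p = 0.0309), from 8.99 ± 0.11 to 8.86 ± 0.17. For Hspa5 the difference was -0.07, with a 95% interval from -0.21 to 0.06. Edem1, Sel1l, Syvn1, Derl2 and Sec61b passed no test. Eif2ak3 differed by -0.08 with the probe set used and by -0.36 with a second one. Dnajc3 differed by 0.06 with the probe set used and by 0.17, 0.13, 0.10 and 0.20 with its dimmer ones. In the T cell list all 6 tested genes but Cd2 had a higher mean in aged cells. Group means of the mean log2 level of that list ran from 5.07 to 5.35 in young and from 5.27 to 5.83 in aged cells. With the scores of 5 cell type lists as covariates the differences were -0.17 for Dnajb9 (adjusted p = 0.182), -0.11 for Ppp1r15a (adjusted p = 0.171), -0.36 for Ddit4 (adjusted p = 0.0643) and -0.05 for Derl1 (adjusted p = 0.505), so that none of these 4 passed. For Xbp1 it was 0.38 (adjusted p = 0.0079), for Asns 0.19 (adjusted p = 0.0459) and for Creld2 0.26 (adjusted p = 0.0305). The part of the cell mixture in these differences was not tested beyond this. Without the 4 arrays of lowest weight the adjusted p was 0.0697 for Ddit4, 0.0636 for Asns, 0.127 for Creld2 and 0.0765 for Derl1. The call of Creld2 was kept in 29 of 58 other fits and that of Derl1 in 53, the latter being lost also without young ZT16 mouse 4, aged ZT4 mouse 1 or aged ZT16 mouse 1 (highest adjusted p 0.051).

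Other genes of the pathway, from lists that exclude the 33, were counted in the same way, beside the 9.89% of all genes higher and 8.73% lower in aged cells; 1 gene called in a list of 10 is near those shares. Of 9 cytosolic tRNA synthetases tested, which charge tRNAs with amino acids and include many ATF4 targets, 5 were higher in aged cells and 0 lower, with a median difference of 0.13; Gars was higher by 0.29 (limma, adjusted p = 0.000954), Aars by 0.31 (adjusted p = 0.00423) and Nars by 0.22 (adjusted p = 0.00482). Of 21 other ATF4 and integrated stress response targets, 5 were higher and 2 lower. They included Slc7a1, a cationic amino acid transporter, higher by 0.60 (adjusted p = 0.00062), Aldh18a1 of proline synthesis by 0.26 (adjusted p = 0.00136) and Psph of serine synthesis by 0.34 (adjusted p = 0.00145). Named after their values were seen, the other 2 higher genes were Slc1a5 and Gadd45a, and the lower ones Eif4ebp1 and Shmt2. Among 8 other eIF2 kinases and regulators, Ppp1r15b, the constitutive counterpart of Ppp1r15a, was higher by 0.32 (limma, adjusted p = 0.00137). In that list 3 were lower, with Nck1 at -0.31 (adjusted p = 0.00218). Mbtps2, the protease that makes the second cut in ATF6, was higher by 0.38 (adjusted p = 0.000108), 1 of 2 called among 9 other transcription factors and proteases of the response. Of 15 other ER folding factors 0 passed and of 10 other ERAD genes 0. At an unadjusted limma p under 0.05 there were 3 and 0, beside 3901 of all 12823 genes. Whether these lists differ from the others was not tested. In the translocon, signal peptidase and glycosylation list 3 of 22 were higher, led by Sec11c at 0.26 (adjusted p = 0.000352), and of 11 COPII coat genes 1 was higher, Sec16a by 0.33 (adjusted p = 6.02e-07), and 1 lower, Sar1b with a difference of -0.19 (adjusted p = 0.00343).

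Of these lists, 4 held genes that changed in young cells from ZT16 to ZT20, where 3.47% of all genes rose and 2.5% fell. In the translocon, signal peptidase and glycosylation list 3 of 22 rose and 0 fell, with a median step of 0.20: the signal peptidase subunits Spcs3, by 0.61 (limma, adjusted p = 0.00459), and Sec11c, by 0.49 (adjusted p = 0.0121), and the oligosaccharyl transferase subunit Stt3a, by 0.38 (adjusted p = 0.00785). Of 9 other transcription factors and proteases of the response 1 rose, Atf6b by 0.61 (adjusted p = 0.00800). Of 15 other ER folding factors 1 rose, Fkbp2, a prolyl isomerase, by 0.50 (adjusted p = 0.0124), and the median step of that list was 0.06. Of 21 other ATF4 and integrated stress response targets, Aldh18a1 rose by 0.49 (adjusted p = 0.00861) and Stc2 fell by 0.79 (adjusted p = 0.000533), with a median step of -0.04. Of 12 cytosolic heat shock chaperones 1 rose, Hsph1 by 0.58 (adjusted p = 0.00827), with a median step of -0.08. No gene of the tRNA synthetase, eIF2 regulator, ERAD or COPII lists passed in this interval. At an unadjusted limma p under 0.05 they held 3, 2, 1 and 1, beside 2399 of all 12823 genes. Of the cell type lists, 2 of 9 suprabasal keratinocyte genes rose, and the mean log2 level of that list was 8.39 ± 0.20 (SD, n = 4) at ZT16 and 8.56 ± 0.05 at ZT20 in young cells. All 9 member calls remained with the 5 cell type scores as covariates.

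The interval in which Herpud1 and Ddit4 fell was also the one in which genes induced by glucocorticoids fell. Of 9 such genes 6 fell from ZT16 to ZT20 in young cells, with a median step of -0.74; Pdk4 fell by 3.11 (limma, adjusted p = 2.38e-07), Tsc22d3 fell by 2.23 (adjusted p = 0.00014) and Fkbp5 fell by 1.62 (adjusted p = 0.00785). In aged cells the mean log2 level of that list was 9.27, 10.11, 9.41, 9.58, 10.17 and 9.76 from ZT0 to ZT20, highest at ZT4 and ZT16, the 2 times at which aged Herpud1 was highest. In young cells it was 9.05, 9.49, 10.08, 9.98, 10.45 and 9.36. The score of the list, the mean of its genes in SD units, was set against each member over the 24 mice of an age, which makes 66 relations, chosen after the courses had been seen. For aged Herpud1 Pearson's r was 0.888 and Spearman's rho was 0.877. The permutation p of r was 1e-05, the smallest that 100000 permutations can give (adjusted p = 0.00066). For this and every p over all mice of an age, mice were shuffled across the times of day. Such a p does not allow for mice sharing a time. Without the 2 mice farthest from the median score r was 0.875, and after each group's mean was taken out it was 0.742 (adjusted permutation p = 0.00924), the only relation of the 66 to pass within groups.

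In young cells Herpud1 had r = 0.698 and rho = 0.751 (adjusted permutation p = 0.00198 for r), 0.716 without 2 mice, and -0.129 within groups. The young relation was thus one across times of day. Ddit4 had r = 0.697 and rho = 0.775 in young cells (adjusted permutation p = 0.00209), 0.785 without 2 mice and -0.112 within groups. Aged Ddit4 had r = 0.494 (adjusted permutation p = 0.0458), 0.441 without 2 mice and 0.350 within groups. Several genes ran the other way in young cells, among them Derl2 with r = -0.749 and Pdia4 with r = -0.740. In all, 13 members passed over the young mice and 8 over the aged mice, with 0 and 1 passing within groups. The correlation was not run over all genes, so no background share stands beside these counts. Mice of 1 time share that time, so these relations describe courses that run alike.

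**Figure D5:**
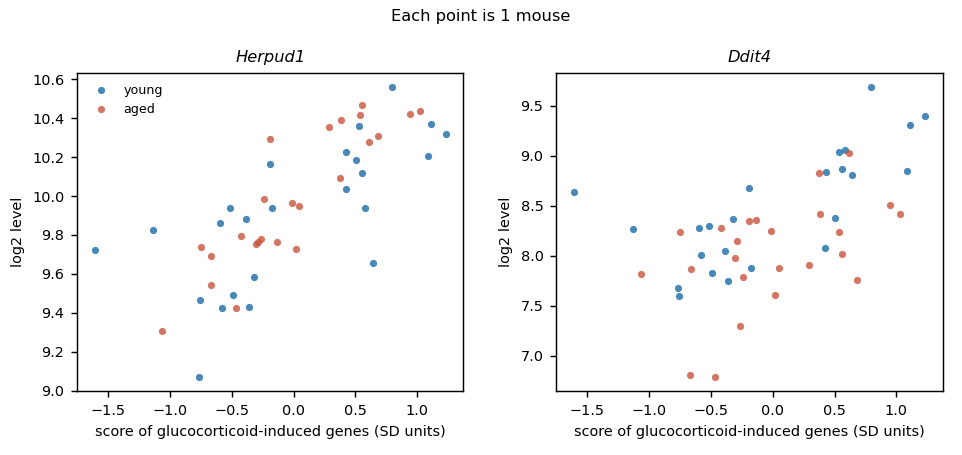
Log2 level of Herpud1 (left) and Ddit4 (right) against the score of 9 glucocorticoid-induced genes (mean of the genes in SD units), where each point is 1 mouse, young in blue and aged in red. Aged Herpud1 follows the score most closely of the 66 relations computed (r = 0.888).

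Of the other promoter motif searched, the amino acid response core TGATGCAA bound by ATF4, the windows of Chac1 and Herpud1 held a match on the reverse strand, among 29 windows, beside 0.895% of all windows. They are printed because Herpud1 had the smallest adjusted p for a difference in course and Chac1 the largest difference in level, with the core in capitals and 20 bases on each side.

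Herpud1, chr8:94386297-94386344, plus strand: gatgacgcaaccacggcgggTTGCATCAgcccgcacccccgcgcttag

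Chac1, chr2:119351029-119351076, plus strand: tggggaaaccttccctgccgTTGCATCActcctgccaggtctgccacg

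Ero1a, the current symbol under which the table lists the ER oxidase and which lies outside the rule, had group means from 7.16 to 8.00 in young and from 7.64 to 7.98 in aged cells.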

How the data were processed

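RNA of EpSCs was extracted with TRizol, amplified from 25 ng with WTA2 over 17 cycles and hybridised to 1-colour Affymetrix arrays, per the labels' protocols. The deposited values are log2 levels made by the authors with RMA (version not given), per the submitters' processing notes; whether all arrays were normalised together is not given in the sources used here. They were used as deposited. Of 45141 probe sets, 28898 named 1 gene and 551 several. Genes in the lowest 25% of means were left out. limma 3.58.1 (R 4.3.3) fitted a 24 h cosine per age and a model of 12 group means to all 12823 genes, with Benjamini-Hochberg adjustment over them; the fit was tested on simulated data. Correlations used permutation in numpy 2.4.6. Replicate numbers do not pair mice. Deviations from the group means correlated at -0.000737 on average for arrays with the same number and 0.000912 for others. Between arrays the lowest correlation was 0.960 and the median 0.985. The highest was not computed, so duplicate arrays were not looked for. All members were named; of other lists, up to 3 called genes with the smallest p. The members and lists were chosen with earlier results of these data known. Alternatives were other scalings, filters, array weights, a replicate block, cell type scores as covariates and leaving out arrays.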

Additional observations from a re-analysis of the deposited data

Results flagged for a closer look

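The course over the 6 times differed between the ages, in limma's test of that difference, for Herpud1 (adjusted p = 0.00158) and Ddit4 (adjusted p = 0.0236), with the values given in the report.

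In 34 of 396 groups of 4 mice, taken over all 33 members, 1 mouse stood apart from the other 3 by Dixon's ratio, where chance marks about 1 group in 20. Mouse 1 of aged ZT12 was low in 4 genes of the ATF4 arm: Atf4 (9.50, the others from 10.78 to 10.91), Sesn2 (7.99, the others from 9.91 to 10.12), Chac1 (4.34, the others from 6.35 to 6.47) and Trib3 (4.56, the others from 5.26 to 5.36). It was also low in Hspa5 (9.69, the others from 10.60 to 10.77) and Manf (9.70, the others from 10.21 to 10.22), and was the lowest of its 4 mice in 14 of the 33 members and the highest in 7. This array also had the lowest array weight of the 48, 0.247, and without it the level of Creld2 (adjusted p = 0.0685) and the aged variation over times of Ern1 (0.0728) and Ppp1r15a (0.0789) no longer passed in limma, whereas the aged variation of Atf4 (0.0455), Sesn2 (0.0170), Dnajb9 (0.00141), Creld2 (0.0101) and Derl1 (0.0470), the young variation of Hspa5 (0.00500) and Sesn2 (0.00503) and the level of Chac1 (0.0258) passed. Mouse 1 of young ZT4 was low in Hsp90b1 (10.77, the others from 11.20 to 11.28) and in Dnajb9 (8.60, the others from 9.27 to 9.32), and its array weight was 0.326. Mouse 2 of young ZT0, with a weight of 0.293, was low in Creld2 (8.89, the others from 9.50 to 9.56).

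Among the sensors and the ATF4 arm, mouse 3 of young ZT12 (6.42) and mouse 2 of aged ZT8 (6.66) were high in Atf6, and mouse 4 of aged ZT16 was low in Eif2ak3 (5.35). Mouse 2 of aged ZT16 was high in Atf4 (10.68). Ddit3 was low in mouse 4 of young ZT0 (8.41) and high in mouse 1 of aged ZT4 (8.25), and Ppp1r15a was high in mouse 1 of aged ZT16 (9.66). Trib3 was high in mouse 1 of young ZT4 (5.11). Sesn2 was high in mouse 4 of aged ZT0 (9.86) and low in mouse 3 of aged ZT16 (8.98).

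Among the chaperones, Hspa5 was low in mouse 4 of aged ZT8 (10.52), Hyou1 in mouse 2 of aged ZT8 (8.39) and Dnajb9 in mouse 1 of young ZT8 (9.38). Pdia4 was low in mouse 4 of young ZT8 (8.65) and in mouse 3 of aged ZT0 (9.20), and Pdia6 was high in mouse 4 of aged ZT20 (9.71). Dnajb11 was high in mouse 2 of aged ZT0 (8.57) and low in mouse 4 of aged ZT12 (7.79). Edem1 was high in mouse 1 of young ZT12 (7.36), and Syvn1 was low in mouse 4 of young ZT4 (8.21) and mouse 2 of young ZT12 (7.88). Herpud1 was low in mouse 3 of young ZT4 (9.43) and mouse 2 of young ZT20 (9.07), and high in mouse 4 of aged ZT8 (10.09) and mouse 4 of aged ZT12 (9.96).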

How the results depend on the processing

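No member called for its level or for a step from ZT16 to ZT20 changed sign in the alternatives run. The balance of level calls did change, from 3 higher and 4 lower members to 5 and 1 with cell type scores as covariates. That 1 lower member is not among the 4 of the main fit, all of which lost their call. The 5 higher ones are Xbp1, Asns, Creld2 and others not called in the main fit. Over all genes the share of level calls that were higher was 53.1%, or 47% with arrays centred on their median. The higher aged level of Xbp1 and the difference in the course of Herpud1 were called in all 58 other fits (adjusted p from 0.000775 to 0.0128 and from 3.02e-05 to 0.0268), and 8 of the 9 young steps in all 59, Pdia6 in 58. Limma's array weights raised most counts of members: 13 in place of 3 for the rhythm in young cells, 4 in place of 0 in aged cells, 21 in place of 11 and 19 in place of 6 for variation over times in young and aged cells, 10 in place of 2 for the course difference, 15 in place of 9 for the young step (13 of them higher in place of 7), 2 in place of 0 for the difference of steps, and 5 in place of 3 for a higher aged level. Weights raised the counts over all genes too, from 804 to 2327 and 174 to 602 for the rhythms, 2242 to 4859 and 1072 to 3598 for variation over times, 332 to 1573 for the course difference and 765 to 2128 for the young step.

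With cell type scores as covariates the counts were 3 for variation over times in aged cells, 1 for the course difference, 5 for higher and 1 for lower aged level; over all genes 557 varied over times in aged cells and 361 took the young step. Without the 4 arrays of lowest weight they were 3 for the aged rhythm, 13 for aged variation over times (2113 over all genes) and 1 for the difference of steps. With each age fitted alone they were 1 and 2 for the rhythm in young and aged cells and 3 for aged variation over times. With arrays centred on their median 1 difference of steps passed, and when all probe sets of a gene were averaged 1 aged step passed.

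Leaving out each array in turn gave 1 to 5 members for the young rhythm, 0 to 1 for the aged rhythm, 10 to 13 and 2 to 9 for variation over times in young and aged cells, 2 for the course difference throughout, 5 to 8 for the level, 9 to 10 for the young step and 0 to 1 for the difference of steps.

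Replicate numbers did not pair mice. With a replicate block 1 member in place of 3 passed for the young rhythm (Hsp90b1 at an adjusted p of 0.0551 and Ddit4 at 0.0594 did not), the level of Creld2 had an adjusted p of 0.0510 and the aged variation of Ern1 0.0609; no other member call changed. With 4 mice a group and times 4 h apart, narrow peaks could be missed, and the number of arrays limits the precision. The cause of these shifts was not tested.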
